A study of Mus musculus with 5 samples.

Results

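The 7 ABC drug efflux transporter genes Abcb1a, Abcb1b, Abcg2, Abcc1, Abcc3, Abcc4 and Abcc5 were followed over 5 expression arrays of 32D cells, a line of mouse myeloid progenitors known for its need of interleukin-3. Members were all probe sets that the annotation of the Affymetrix mouse array maps to 1 of these genes alone, which gave 19 of 45101 probe sets, and 7 of 18193 named genes. All 5 groups were 32D cells stably transduced with a retroviral FLT3-ITD construct, and they differed in the construct, labelled ITD613, ITD78, ITD598, ITD602 or ITD611, with 1 array each. Progenitors of blood carry the receptor kinase FLT3, which an internal tandem duplication (ITD) makes active in the absence of its ligand. Every group had been starved for 3 h and then given a tyrosine kinase inhibitor (TKI), which the labels do not name, for 1 h, so the treatment was shared and its effect was not measured. The labels do not say what the construct numbers mean or whether a line is 1 clone, and neither cells without a construct nor replicate arrays were analysed here. The series set FLT3-ITD variants against each other. With 1 array per construct no difference could be tested, and differences are described by size beside their share among all genes.

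ABC transporters use ATP to move molecules across membranes, and those called efflux or multidrug transporters carry drugs out of the cell. Abcb1a and Abcb1b are the mouse counterparts of human ABCB1, which encodes P-glycoprotein, a pump for anthracyclines and many kinase inhibitors. Abcg2 encodes the breast cancer resistance protein, which marks the dye-excluding side population of blood stem cells, and the Abcc genes encode multidrug resistance-associated proteins, which export drugs and metabolites as conjugates or organic anions. Raised efflux is a known form of drug resistance in acute myeloid leukaemia.

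The promoters of the P-glycoprotein genes are shown because Abcb1b was the member that differed between the constructs while Abcb1a was low on all arrays. The genes lie close together on chromosome 5, with 2 annotated predicted genes between them, and are transcribed in the same direction. Each sequence runs from 250 bases before to 50 bases after the annotated start site, on the plus strand of GRCm38.p6, from RefSeq (5 of the 7 genes had a promoter in the table). Capitals mark matches to CCAAT and GGGCGG on either strand, which do not overlap.
Abcb1b, chr5:8797897-8798196: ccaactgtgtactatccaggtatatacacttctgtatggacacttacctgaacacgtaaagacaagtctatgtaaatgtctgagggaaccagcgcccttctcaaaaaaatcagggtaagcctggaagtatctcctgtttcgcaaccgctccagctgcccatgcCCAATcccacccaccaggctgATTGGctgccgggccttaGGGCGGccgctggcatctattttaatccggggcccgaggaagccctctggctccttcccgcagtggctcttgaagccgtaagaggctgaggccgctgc
Abcb1a, chr5:8566841-8567140: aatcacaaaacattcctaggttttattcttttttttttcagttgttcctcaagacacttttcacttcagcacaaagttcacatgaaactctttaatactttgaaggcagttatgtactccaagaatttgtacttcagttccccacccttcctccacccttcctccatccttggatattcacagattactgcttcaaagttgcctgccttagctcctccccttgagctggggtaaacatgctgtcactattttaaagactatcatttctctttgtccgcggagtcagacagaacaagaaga

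The Abcb1b promoter held 2 matches to CCAAT, 1 on each strand, starting 87 and 66 bases before the start site, and 1 match to GGGCGG starting 48 bases before it. The Abcb1a promoter held neither. Of 32851 promoters of the same length, 37.4% held CCAAT and 35.7% held GGGCGG, so these letters are common. TATAAA, found in 13.6% of promoters, and TTCNNNGAA, the spaced form read by STAT factors, found in 8.30%, were in neither promoter. A match describes these letters only. G and C made up 55.0% of the bases of the Abcb1b promoter and 40.3% of those of the Abcb1a promoter.

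All values are log2 values as deposited, and a difference of 1 is 2-fold. A gene was represented by its probe set of highest mean, and it passed the filter on low values where its highest value reached 2.75, the 60th percentile of all values. This left 9621 genes, among them 4 of the 7 members: Abcb1b, Abcc1, Abcc4 and Abcc5. Below 3.74 many probe sets of an array share a value, so the size of a difference that reaches into this range is uncertain. Array medians ran from 1.99 to 2.06. The label of a myeloid progenitor line was checked on 11 identity genes: 6 of them passed the filter (Mpo, Prtn3, Ctsg, Spi1, Csf2rb and Il3ra), and Elane, Cebpa, Csf2ra, Kit and Itgam were below it on all 5 arrays. Their mean level was 3.58 on ITD613, 3.70 on ITD78, 4.27 on ITD598, 4.33 on ITD602 and 4.10 on ITD611. Of lymphoid markers 1 of 6 with a probe set passed (Cd4, at most 3.36), and of stromal and epithelial markers 1 of 8 (Epcam, at most 3.29). Of erythroid markers 8 of 9 with a probe set passed, and of mast cell and eosinophil markers 5 of 7. These counts do not hold on each array, since a gene passes on its highest value. Fcer1a and Epx reached the filter only on ITD613, and Slc4a1 only on ITD613 and ITD78. On every array the mean level of the erythroid markers was above that of the myeloid identity genes, from 5.64 on ITD602 to 8.14 on ITD613. Different genes are read by different probe sets, so these means do not rank the lineages. The check therefore does not single out the myeloid label.

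Abcb1b was the only member with a range of at least 2-fold over the 5 constructs, 1 of the 4 that passed the filter, where 10.4% of all 9621 genes had such a range. It read 3.18 on the ITD613 array, 4.76 on ITD78, 6.49 on ITD598, 6.34 on ITD602 and 6.42 on ITD611. The levels thus stood in 3 steps: ITD613 lowest, ITD78 between, and ITD598, ITD602 and ITD611 together at the top. Its range of 3.30 (log2), 9.86-fold, was the 39th widest of the 9621 genes. The top 3 arrays lay within 0.14 of each other, so their order cannot be read without replicates.

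**Figure D1:**
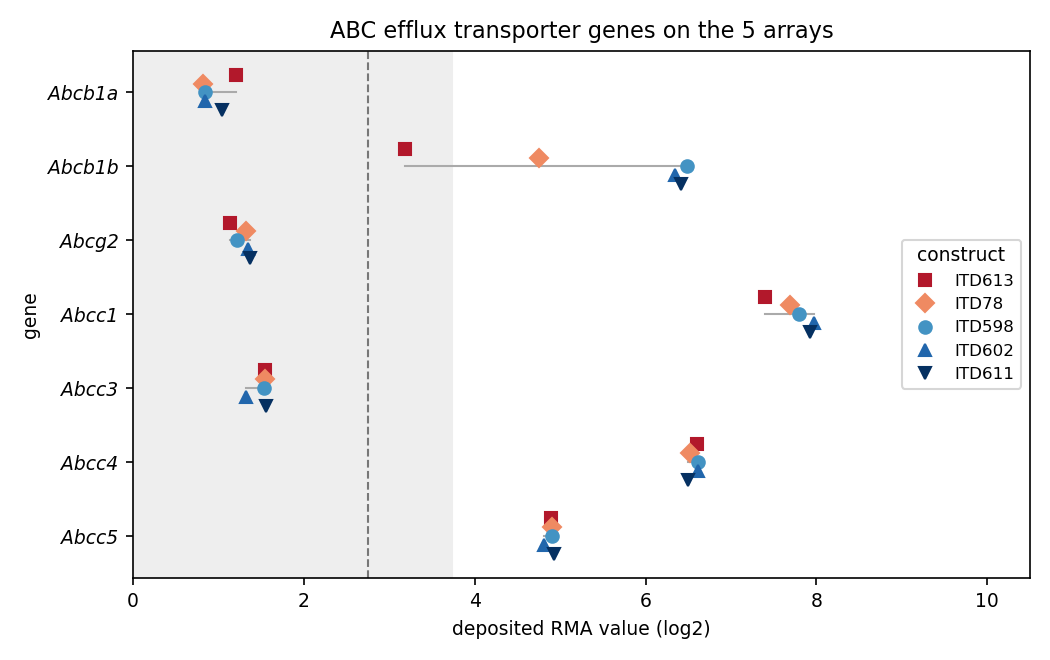
Deposited RMA value (log2) of the 7 efflux transporter genes, 1 row per gene and 1 symbol per construct array (ITD613, ITD78, ITD598, ITD602, ITD611 from top to bottom in each row); the dashed line is the filter value of 2.75 and the grey area the range below 3.74 in which many probe sets share a value. Abcb1b spreads from 3.18 on ITD613 to 6.49 on ITD598, while the symbols of each other gene lie within 0.56 of one another.

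On ITD613, Abcb1b read 3.18 against 6.0 ± 0.83 on the other 4 arrays (SD over constructs and not replicates, n = 4 arrays), a difference of -2.82 or 7.04-fold lower. It lay 1.57 below the nearest array, ITD78. Abcb1b was the only member at least 2-fold below all of the other arrays on ITD613, as were 0.925% of all genes. The array measures RNA of all cells together, so fewer cells with the transcript and less of it per cell cannot be told apart. The ITD613 value lies in the low range below 3.74, although no other probe set of that array held the same value. Where each lower value was set to 3.74, Abcb1b was 2.02-fold lower on ITD613 than on ITD78 and 6.71-fold lower than on ITD598.

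The ITD78 array, at 4.76, differed from each of the 3 higher arrays by more than 2-fold as well. Abcb1b was lower on ITD78 than on ITD598 by 3.32-fold (difference -1.73), than on ITD611 by 3.17-fold (-1.66) and than on ITD602 by 3.00-fold (-1.59). Among all genes, 0.935% were at least 2-fold lower on ITD78 than on ITD598, 0.873% than on ITD611 and 1.52% than on ITD602. On ITD613 Abcb1b was 2.97-fold lower than on ITD78, and 1.26% of all genes were at least 2-fold lower in that pair. Against the 3 higher arrays it was lower on ITD613 by 9.86-fold (ITD598), 9.41-fold (ITD611) and 8.92-fold (ITD602), where the shares of all genes at least 2-fold lower were 2.85%, 2.83% and 3.92%. These comparisons share arrays and are not independent of one another.

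Few genes followed the same 2 steps. A value on ITD613 at least 2-fold below ITD78, with ITD78 in turn at least 2-fold below each of ITD598, ITD602 and ITD611, was found in 15 of 9621 genes (0.156%), among them the granule protease gene Ctsg. This pattern was described after the values of Abcb1b were seen. The 3 genes most like Abcb1b were Gzmb, Emb and Fbp2, by the root mean square difference of the values over the 5 arrays after each gene was centred on its own mean. Gzmb encodes granzyme B, a protease of cytotoxic granules. It read 3.98 on ITD613, 5.44 on ITD78, 7.27 on ITD598, 6.91 on ITD602 and 7.02 on ITD611, at a root mean square difference of 0.09. Emb encodes embigin, a membrane partner of lactate transporters, and it read 2.91 on ITD613, 4.63 on ITD78, 6.19 on ITD598, 6.61 on ITD602 and 6.31 on ITD611 (root mean square difference 0.20). The ITD613 value of Emb lies in the low range below 3.74. Fbp2, the muscle form of fructose bisphosphatase, read 4.35 on ITD613, 5.82 on ITD78, 7.02 on ITD598, 7.25 on ITD602 and 7.36 on ITD611 (0.21). For all other genes the median of this measure was 1.30, and 33 genes were within 0.5. A gene that is level over the arrays differs from Abcb1b by the spread of Abcb1b itself. The median is therefore no yardstick of likeness. The measure rests on 5 arrays.

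**Figure D2:**
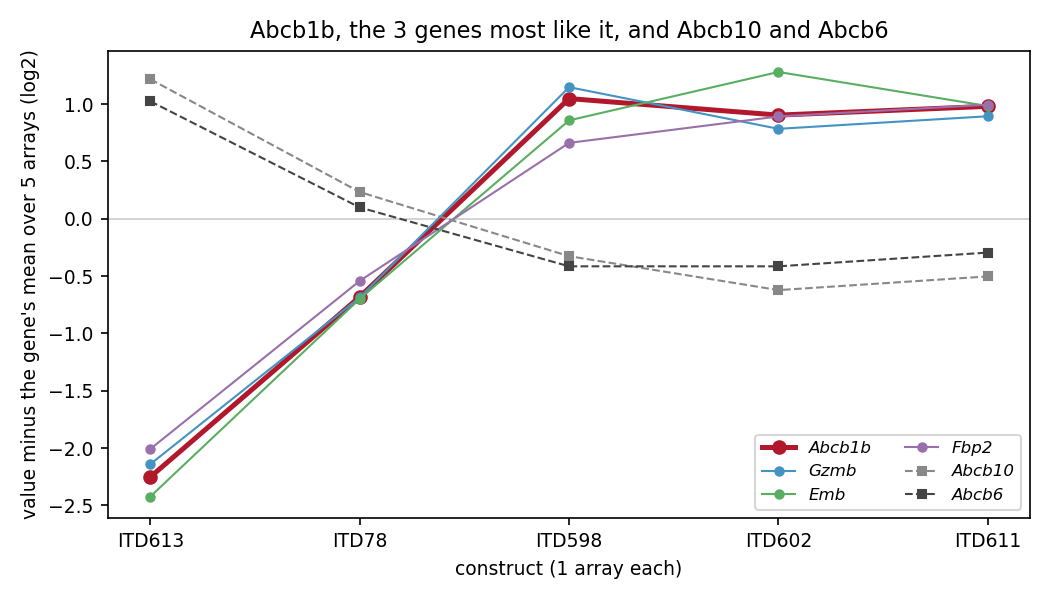
Value minus the gene's own mean over the 5 arrays (log2) for Abcb1b, for Gzmb, Emb and Fbp2, which are most like it, and for the ABC genes Abcb10 and Abcb6 (dashed), on each construct array; lines join the values of 1 gene. Abcb1b and the 3 like genes are lowest on ITD613 and next lowest on ITD78, and Abcb10 and Abcb6 are highest on ITD613.

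Abcb1b has a second probe set, which did not show these steps. It read 1.19 on ITD613, 1.16 on ITD78, 1.04 on ITD598, 1.46 on ITD602 and 1.25 on ITD611, below the filter on every array. The statements on Abcb1b therefore rest on 1 probe set. Abcb1a and Abcb1b are similar in sequence, and whether the Abcb1b probes also bind Abcb1a transcripts was not tested.

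Abcb1a, the other P-glycoprotein gene, was below the filter on every array. The probe set standing for it read 1.20 on ITD613, 0.82 on ITD78, 0.84 on both ITD598 and ITD602, and 1.04 on ITD611. Its other probe set read 0.38 on all 5 arrays, a value that between 206 and 567 probe sets of each array held. Abcg2, measured by 1 probe set, was also below the filter throughout, at 1.14 on ITD613, 1.32 on ITD78, 1.22 on ITD598, 1.34 on ITD602 and 1.37 on ITD611. At these levels neither gene can be said to differ between the constructs.

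Abcc1 encodes the multidrug resistance-associated protein that exports glutathione conjugates and leukotriene C4. It read 7.40 on ITD613, 7.69 on ITD78, 7.80 on ITD598, 7.97 on ITD602 and 7.92 on ITD611. It was thus high on all arrays and lowest on ITD613, 0.44 below the mean of the other 4 (7.84 ± 0.12, SD over constructs, n = 4 arrays). The range was 1.48-fold, below the size called, and 3228 genes had a wider one. The other Abcc1 probe set, in the low range, read 2.79 on ITD613, 3.00 on ITD78, 3.12 on ITD598, 3.26 on ITD602 and 3.54 on ITD611, so ITD613 was lowest and ITD78 next lowest on both. That order is common: 16.6% of the 9621 genes had it.

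Abcc4 and Abcc5 were level over the constructs. Abcc4 encodes an exporter of cyclic nucleotides, prostaglandins and nucleotide analogues that is also found in platelet granules. It read 6.60 on ITD613, 6.52 on ITD78, 6.62 on both ITD598 and ITD602, and 6.50 on ITD611, a range of 1.08-fold that was narrower than that of 95.9% of genes. Abcc5 encodes an exporter of cyclic nucleotides and hyaluronan. The highest of its 10 probe sets read 4.89 on ITD613, 4.91 on both ITD78 and ITD598, 4.81 on ITD602 and 4.93 on ITD611, a range of 1.09-fold. The other 9 lay between 0.80 and 3.83 and none had a range above 0.66, the widest being one whose values all lie below the filter. Abcc3, an exporter of glucuronides in liver and gut, was below the filter on every array, between 1.32 on ITD602 and 1.55 on ITD611.

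**Figure D3:**
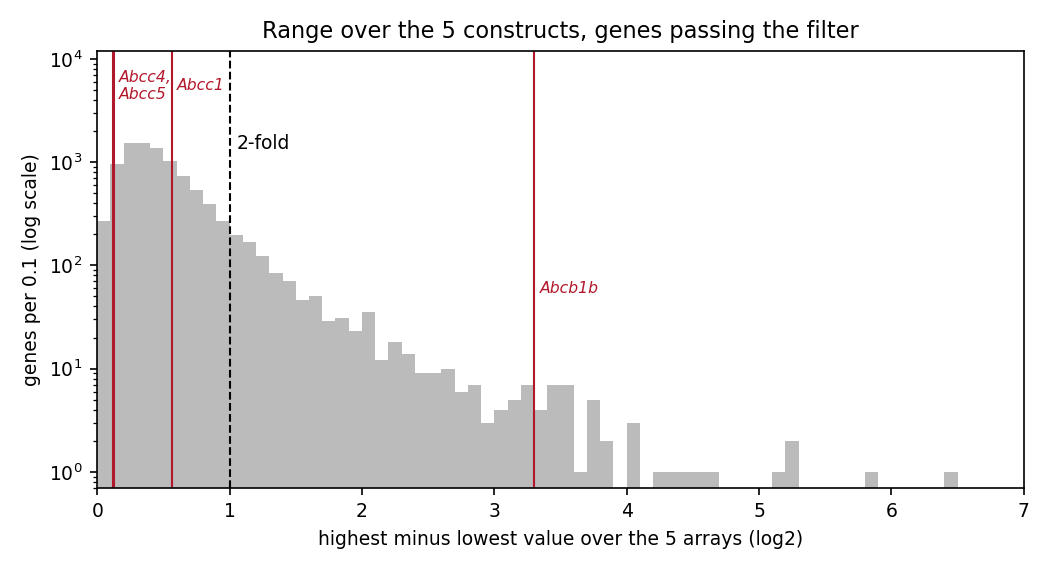
Number of genes (log scale) by the highest minus the lowest value over the 5 arrays (log2), for the 9621 genes that passed the filter, with the 4 efflux transporter genes that passed drawn as lines and the 2-fold size dashed. Abcc4, Abcc5 and Abcc1 lie below 2-fold (0.12, 0.13 and 0.56) and Abcb1b lies at 3.30, among the widest.

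Over the 4 members that passed the filter, the median distance from the other 4 arrays' mean was -0.22 on ITD613 and -0.07 on ITD78, against 0.01 and -0.03 over all genes. With 4 genes this median describes Abcb1b and Abcc1 below and Abcc4 and Abcc5 near 0, and nothing shared. Between ITD598, ITD602 and ITD611 no member differed by 2-fold in any of the 3 pairs, where 0.260% of genes did so between ITD598 and ITD602, 0.125% between ITD598 and ITD611 and 0.218% between ITD602 and ITD611. Among the 4 members past the filter, the largest difference in these pairs was that of Abcc1, at -0.17 for ITD598 minus ITD602. The title of the ITD602 array carries another date-like string than the other 4 titles, and the labels do not say what it means. Any difference it stands for cannot be told apart from that of the construct on this array. Without that array Abcb1b on ITD613 differed by -2.70 from the mean of the remaining 3, against -2.82 with it.

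Of the other ABC transporter genes, Abcb10 and Abcb6 were higher on ITD613, the opposite direction to Abcb1b. Of 38 such genes 15 passed the filter, and these 2 exceeded the other 4 arrays' mean by at least 2-fold on ITD613, while none was 2-fold below it on its main probe set, where 3.18% of all genes were 2-fold above that mean and 2.35% below it. The median over the 15 was 0.0025. Abcb10 encodes a transporter of the inner mitochondrial membrane needed for haem production in red cell precursors. It read 7.65 on ITD613, 6.66 on ITD78, 6.10 on ITD598, 5.81 on ITD602 and 5.93 on ITD611, a difference of 1.52 for ITD613 from the mean of the other 4, and 1.43 on its second probe set. Abcb6, a porphyrin transporter, read 7.43 on ITD613, 6.50 on ITD78, 5.99 on both ITD598 and ITD602, and 6.11 on ITD611, a difference of 1.28. Both genes were highest on ITD613 and next highest on ITD78. Abcg1, a cholesterol exporter named after its values were seen, ran the other way: its main probe set differed by -0.56 on ITD613, and its second read 2.85 on ITD613, 3.47 on ITD78, between 3.99 and 4.03 on ITD598, ITD602 and ITD611, a difference of -1.02 that reaches into the low range. Abcb4, the gene most similar to the P-glycoprotein genes, was below the filter on all arrays.

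**Figure D4:**
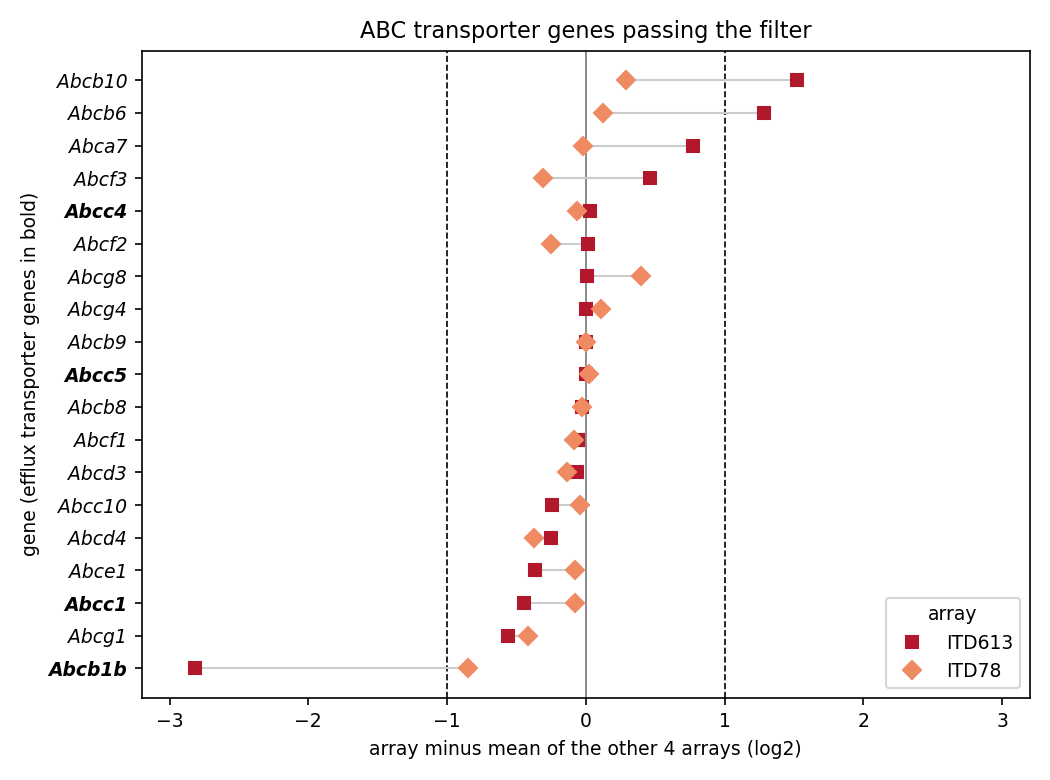
Value on the ITD613 array and on the ITD78 array minus the mean of the other 4 arrays (log2) for the 19 ABC transporter genes that passed the filter, efflux transporter genes in bold; dashed lines mark 2-fold. Abcb1b is lowest on ITD613 at -2.82 and Abcb10 highest at 1.52.

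Erythroid, myeloid and mast cell markers also differed between these arrays. Of 9 erythroid markers with a probe set, 8 passed the filter. Of these, 6 exceeded the other 4 arrays' mean by at least 2-fold on ITD613, where 3.18% of all genes did. The mean level of the 9 was 8.14 on ITD613, 7.49 on ITD78, 6.27 on ITD598, 5.64 on ITD602 and 6.11 on ITD611. Klf1, a red cell transcription factor, read 10.01 on ITD613, 8.44 on ITD78, 7.36 on ITD598, 6.68 on ITD602 and 7.08 on ITD611. Alas2, the haem synthesis enzyme of red cells, was below the filter on every array. Of the 6 myeloid identity genes that passed, 3 fell short of the other 4 arrays' mean by at least 2-fold on ITD613, where 2.35% of all genes did. Among the 3 was Ctsg (6.24 on ITD613, 7.42 on ITD78, 9.09 on ITD598, 9.17 on ITD602 and 8.77 on ITD611). Of 7 mast cell and eosinophil markers 5 passed and 4 were 2-fold above it on ITD613, with mean levels of 3.69 on ITD613, 1.86 on ITD78, 2.47 on ITD598, 2.18 on ITD602 and 2.16 on ITD611. Among the 4, Fcer1a (3.96 on ITD613, at most 0.72 elsewhere) and Epx (5.18, at most 2.14 elsewhere) passed the filter only through ITD613. Their place in this count therefore lends no weight, and their differences reach into the low range, so the sizes are uncertain. The part of these marker differences in the Abcb1b, Abcb10 and Abcb6 differences was not tested.

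The uptake carriers bring drugs, nucleosides and folates into cells. Of the 15 uptake carriers 12 had a probe set and 8 were above the filter. Of these, 2 lay 2-fold or more under the other 4 arrays' mean on ITD613 and none over it, where 2.35% of all genes lay under and 3.18% over. The median was -0.20, against 0.01 over all genes. Slco3a1, an organic anion carrier, read 3.63 on ITD613, 5.02 on ITD78, 5.98 on ITD598, 5.89 on ITD602 and 5.82 on ITD611, lowest on ITD613 and next lowest on ITD78. Its ITD613 value lies in the low range below 3.74, so the size of its difference is uncertain. Slco4a1, a carrier of thyroid hormones and other anions, read 7.51 on ITD613 and between 8.49 and 8.64 on the other 4. Slc19a1, the reduced folate carrier that also takes up methotrexate, read 6.06 on ITD613, 6.69 on ITD78, 6.93 on ITD598, 7.06 on ITD602 and 7.02 on ITD611.

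Genes of glutathione use and leukotriene C4 synthesis, which make substrates of the Abcc1 product, went both ways. Of 20 genes 19 had a probe set, 15 passed the filter and 7 had a range of at least 2-fold, as 10.4% of all genes did. On ITD613, 1 of the 15 lay 2-fold over the other 4 arrays' mean and none under it, where the shares of all genes were 3.18% and 2.35%. The median was -0.21, against 0.01 over all genes. Mgst3, a microsomal glutathione transferase, read 9.31 on ITD613, 8.27 on ITD78, 7.14 on ITD598, 6.18 on ITD602 and 6.41 on ITD611. Mgst2, a related enzyme that can make leukotriene C4, read 8.76 on ITD613, 8.60 on ITD78, 7.73 on ITD598, 7.64 on ITD602 and 7.53 on ITD611. Ltc4s, the leukotriene C4 synthase, read 2.47 on ITD613, 2.39 on ITD78, 3.62 on ITD598, 4.05 on ITD602 and 3.47 on ITD611, and the values of Gstm2, a cytosolic transferase, were all at most 2.97, so that these cannot be sized.

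Of 19 known regulators of efflux transporter genes 17 had a probe set and 10 passed. A range of at least 2-fold was found in 1 of the 10, near the 10.4% of all genes, and the median on ITD613 was -0.04. This gene was Runx1, a transcription factor of blood cells, at 4.03 on ITD613, 4.86 on ITD78, 5.11 on ITD598, 5.45 on ITD602 and 5.06 on ITD611. Nr1i2 and Nr1i3, the nuclear receptors that sense drugs, were below the filter on every array. Of the genes that make or break down cyclic nucleotides, which Abcc4 and Abcc5 products export, 13 had a probe set and 7 passed. None of the 7 had a range of 2-fold, where 10.4% of all genes had one.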

How the data were processed

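The authors deposited RMA values on a log2 scale, per the submitters' processing notes. RMA corrects background, normalizes arrays to one another and summarises each probe set; its version and chip definition are not given in the sources used here, and the base of the logarithm was inferred from their span (-0.07 to 13.45). Of 45101 probe sets, 64 controls, 932 with several genes and those with no listed gene were left out, which left 34945. A gene is said to have a probe set where 1 of these maps to it alone. A gene without one may still be on the array. Gene IDs of all 7 members matched the RefSeq table of GRCm38.p6, used for names, neighbours and promoters. As each construct has 1 array, nothing was tested. The number of arrays limits the precision. A gene was called at a difference of 1 (log2), set apart on an array at 1 beyond the nearest of the other 4. Named besides the members were up to 3 genes most like each called member and up to 4 per list with the widest range of at least 2-fold. Cd4, Epcam, Abcb4, Nr1i2, Nr1i3 and the genes said to be below the filter were named after their values were seen. Members and lists were chosen with earlier results of these data known. The rules were run on simulated data in which the differences put in were well above the size called. That simulation held no shared low values and no disagreeing probe sets, so it does not bear on those limits. Python 3.11.15, numpy 2.4.6 and pandas 2.3.3 were used.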

Additional observations from a re-analysis of the deposited data

How the results depend on the processing

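Direction and call of the Abcb1b results held under most settings. These were the probe sets used, the filter, low values raised, 2 other scalings, a size of 1.5-fold, the median of the other arrays, and each array left out. Some settings could not change the Abcb1b values: the filter, the size of 1.5-fold, and the removal of probe sets by name ending. Leaving out ITD598, ITD602 or ITD611 could not change the difference of ITD613 from ITD78. These outcomes therefore lend no weight. When probe sets of a gene were averaged, the count of members set apart on an array was 0 and the count differing at least 2-fold between ITD613 and ITD78 was 0, since the second Abcb1b probe set is low on every array; the Abcb1b difference of ITD613 was then -1.43 from the mean of the other 4 and -0.77 from ITD78. The count of members with a range of at least 2-fold was 1 under each setting. Without the ITD613 array the Abcb1b range was 1.73, and the member set apart was Abcb1b on ITD78. The ITD78 difference of Abcb1b from the other arrays ran from -1.66 (without ITD613) to -0.56 (without ITD598) with an array left out and was -0.47 with probe sets averaged, beside -0.85 with all. With low values raised to 3.74 the ITD613 differences were -2.26 and -1.02. Neither ITD613 difference of Abcb1b changed sign. A reversal could be counted for these differences alone, since every other value was a range or was smaller than the size called. Over the 5 gene lists, 124 of 130 medians moved by less than 0.18, the SD over genes between the closest pair of arrays. The median of the uptake carriers on ITD613 ran from -0.87 (75th percentile as the filter) to -0.01 (low values raised). Raising low values also let every gene pass the filter, so list medians under that setting include genes with no difference left. No paired analysis was possible because each construct has 1 array. The difference of ITD613 from ITD78 has no value without either of them.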
